A study of Mus musculus with 21 samples.

Results

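Motile cilium and axoneme genes were followed in RNA sequencing of primary mouse brain microglia, the resident macrophages of the brain, which carry no motile cilia. They were taken by symbol: Cfap, Dnah, Dnaic, Dnali, Dnaaf, Rsph, Tekt or Drc followed by a number, with a value above 0 in at least 1 library of each of the 2 deposited tables. This gave 67 genes of 54532 listed symbols, the same 67 in both tables. The first table, on aging, held 3 libraries each of aged Trem1-/-, aged wild type, young Trem1-/- and young wild type microglia, with the ages given only as those words. The other table held 3 libraries each of microglia labelled 5XFADXTREM1+/-, 5XFAD and wild type, all adult. 5XFAD mice carry human familial Alzheimer's transgenes expressed in neurons, and Trem1 encodes a myeloid receptor that amplifies inflammatory signalling. The labels describe no isolation step or sort gate. They do not give from how many mice each group's libraries were made, and each p-value below reflects only the variation among these samples.

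A motile cilium is built on the axoneme, a ring of microtubule doublets around a central pair. Outer and inner dynein arms, multi-subunit motors assembled in the cytoplasm by the Dnaaf factors, slide the doublets. Radial spokes, the nexin-dynein regulatory complex and the central apparatus coordinate them, while tektins and many Cfap proteins line the doublets or anchor these parts. In the brain such cilia stand on ependymal cells, which move cerebrospinal fluid along the ventricles, and cilia also stand in tufts on the epithelium of the choroid plexus, which secretes that fluid. The members were grouped by these roles into 29 Cfap genes, 5 outer arm heavy chains, 10 inner arm heavy chains, 3 intermediate or light chains (Dnaic1, Dnaic2, Dnali1), 3 Drc genes, 8 radial spoke genes, 5 tektins and 4 assembly factors. A set of 6 of them (Cfap20, Cfap36, Cfap97, Cfap298, Dnaaf2 and Dnaaf5) is known to be expressed widely outside motile cilia and is called broad below.

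Depth was 8600878 to 19411434 gene reads per library for aging and 9264999 to 18698707 for 5XFAD. A level is a normalized count, the authors' read count divided by a size factor per library, and the tables were normalized separately. A floor of 3 reads corresponds to a level of 2.06 to 4.51 in aging libraries and of 2.26 to 4.36 in 5XFAD libraries, for counting error only. Genes with a table mean of at least 10 normalized counts were tested with limma on log2(normalized count + 1), and a gene is said to have risen or fallen where its Benjamini-Hochberg adjusted p over all genes tested was under 0.05. This filter passed 49 of the 67 members among 16086 genes for aging and 52 among 17025 genes for 5XFAD, 48 of them in both. The 10 microglial markers summed to 22246 to 35239 RPM (reads per 1000000 reads on genes) in aging libraries and 23760 to 32174 RPM in 5XFAD libraries. Trem1 itself did not bear out the genotype labels. Young libraries labelled Trem1-/- had 89.4, 99.8 and 89.5 normalized counts of Trem1, all above the 25.2, 7.65 and 8.74 of young wild type. Aged libraries labelled Trem1-/- had 124, 124 and 244, against 269, 188 and 237 in aged wild type. Directions by genotype therefore rest on the labels.

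Most of the reads on members came from few genes. Cfap74, a central apparatus protein in Chlamydomonas, had the highest table means of all members, 1571 (aging) and 1746 (5XFAD) normalized counts. It held 23.4% ± 3.86 of the members' reads in aged Trem1-/- and 17.4% ± 3.42 in aged wild type, against 26.7% ± 4.32 in young Trem1-/- and 34.6% ± 5.42 in young wild type libraries (SD, n = 3 each). The next highest table means in both tables belonged to the broad genes Cfap97, Cfap36 and Cfap20, to Cfap43, Drc7 and the assembly factor Dnaaf5, and to the radial spoke gene Rsph3a. Per kilobase of exon, the order in the aging table was Drc7 with 172 normalized counts, the broad Cfap36 with 167, Cfap74 with 158, the broad Cfap298 with 116 and Cfap97 with 107. In the 5XFAD table the same scale gave 191 for Cfap36, 175 for Cfap74, 141 for Drc7, 115 for Cfap97 and 109 for Cfap298. Rsph1 had 68.3 (aging) and 91.0 (5XFAD) per kilobase, above every dynein heavy chain. The dynein heavy chains, which have very long transcripts, had at most 5.02 per kilobase with Dnah9 (aging) and 6.14 with Dnah17 (5XFAD).

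A set of 18 members was too low to test in the aging table, 15 in the 5XFAD table and 14 in both. They include Dnaaf1, Cfap221, Cfap299, Rsph6a, Rsph14, Tekt2, Tekt3 and Tekt4. Their highest values in any library were 37.6 normalized counts for Dnah5 in aged Trem1-/- replicate 3 and 43.6 for Cfap73 in 5XFAD replicate 2. Cfap99 was above 0 in 1 library of the aging table, with 2.11 normalized counts in young Trem1-/- replicate 3, which is within the floor. The near-identical genes Dnah7a, Dnah7b and Dnah7c, and the copies Rsph3a and Rsph3b, can share reads, so their separate values are uncertain. The exons of 30 members overlap those of another gene, and since strandedness was not given in the sources used here, reads of overlapping genes on opposite strands cannot be told apart.

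**Figure D1:**
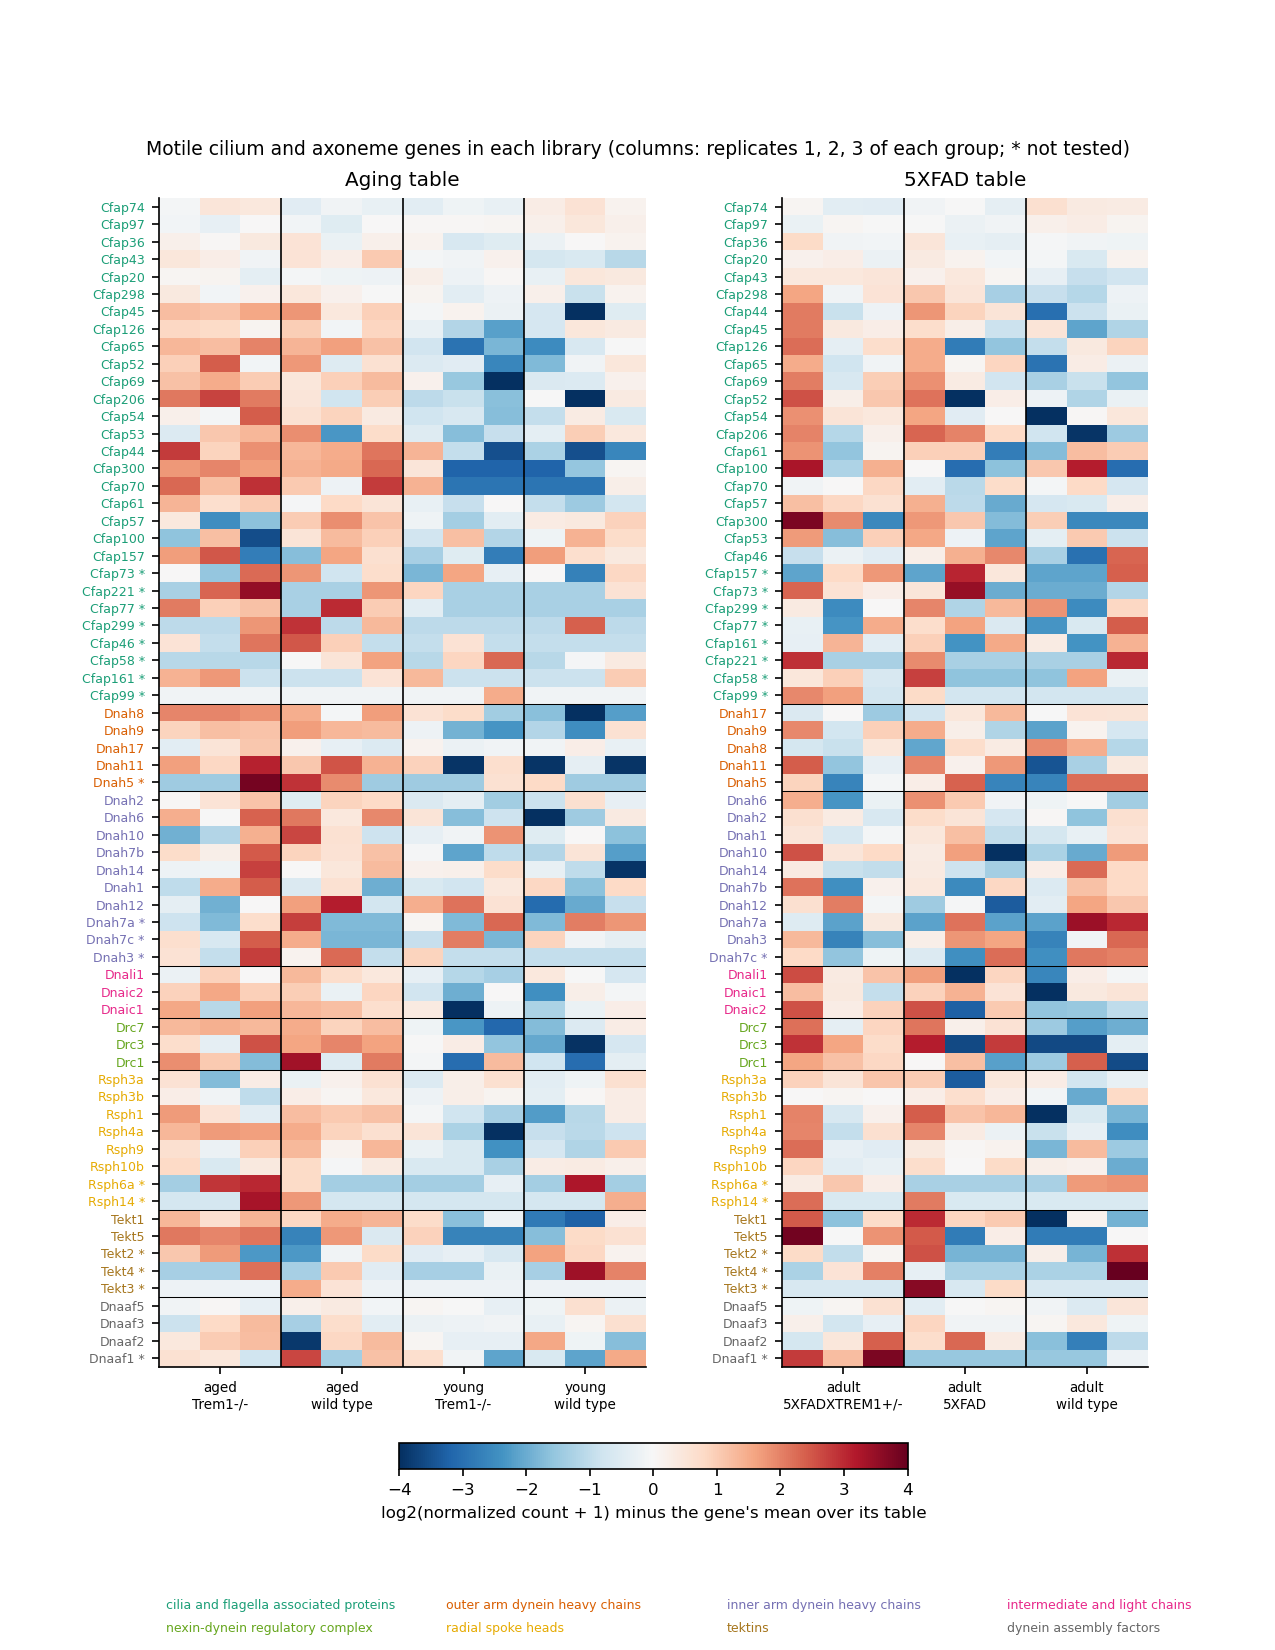
Level of each of the 67 members (rows, coloured by role) in each library (columns, replicates 1 to 3 of each group), as log2(normalized count + 1) minus the gene's mean over its table; values beyond 4 in either direction have the end colour, and an asterisk marks a member that was not tested. Most rows are redder in the aged libraries than in the young ones, and in the 5XFAD table many rows are reddest in 5XFADXTREM1+/- replicate 1 and 5XFAD replicate 1.

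In aged against young wild type microglia, the genes past the threshold were 4 Cfap genes, 1 of them lower, 3 outer arm heavy chains, and 1 gene each of the regulatory complex, the radial spokes and the tektins. Of the 49 tested members, 9 rose and 1 fell in aged against young wild type, against 8.67% of all genes tested past the same threshold in either direction. The members' median log2 difference was 1.2, while that of all genes tested was -0.0067, and 39 of 49 members were above 0. With no filter on low values, all 67 members had a median of 1.03, with 50 above 0. Each aged library lay above each young one for 23 of the 49 members, against 15.1% of all genes tested. In bulk samples, more cells of a type and more RNA per cell cannot be told apart.

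The outer arm dynein heavy chains, the motors that set beat frequency, included 3 risen genes of 4 tested. Dnah9 had 171, 136 and 129 normalized counts in aged wild type, against 23.3, 8.75 and 82.1 in young wild type libraries. The groups did not overlap, and the log2 difference was 2.43 ± 0.65 (SE, limma adjusted p = 0.0194). Dnah8, a chain best known from the sperm flagellum, had 157, 53.5 and 179.9 normalized counts in aged wild type, against 16.8, 1.09 and 11.4 in young wild type libraries. Its log2 difference of 3.91 ± 0.72 (limma adjusted p = 0.00157) kept its call with each of the 6 libraries left out. Dnah11 had 31.1, 85.0 and 38.6 normalized counts in aged wild type, against 0, 10.9 and 0 in young wild type libraries. Both young libraries at 0 lie under the floor, and the log2 difference was 4.39 ± 1.204 (limma adjusted p = 0.024). Dnah17, the remaining tested chain and the other one best known from sperm, had 83.3, 58.3 and 49.8 in aged wild type, against 66.2, 88.6 and 59.4 in young wild type, with overlapping groups.

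Genes for the Cfap proteins, the largest role, had 3 risen and 1 fallen member among 21 tested, with a median log2 difference of 1.03. Cfap43, needed for the sperm flagellum in mice, had 589, 488 and 840.1 normalized counts in aged wild type, against 246, 261 and 187 in young wild type libraries. This was the member with the smallest adjusted p: the log2 difference was 1.44 ± 0.22 (limma adjusted p = 0.000153), and it was past the threshold in each of 16 alternatives, with adjusted p of at most 0.0136. Cfap65, a central apparatus protein in Chlamydomonas, had 94.4, 117 and 83.5 in aged wild type, against 5.60, 23.0 and 35.8 in young wild type libraries, a log2 difference of 2.45 ± 0.68 (limma adjusted p = 0.0241). Cfap44, which in Chlamydomonas works with the Cfap43 protein in tethering an inner dynein, had 27.8, 30.9 and 49.0 normalized counts in aged wild type, against 3.73, 0 and 0.874 in young wild type libraries. All aged values exceeded all young ones, 2 of which were within the floor, and the log2 difference was 4.11 ± 1.15 (limma adjusted p = 0.0251).

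Cfap74 went the other way from these genes. It had 1113, 1368 and 1228 normalized counts in aged wild type, against 1858, 2292 and 1681 in young wild type libraries, with no overlap. The log2 difference was -0.64 ± 0.15 (limma adjusted p = 0.00681). Without young wild type replicate 2 it was -0.52, with an adjusted p of 0.0663. The exons of Cfap74 on chromosome 4 (GRCm38, 155409190 to 155466823, plus strand) overlap those of 5830444B04Rik on the opposite strand, which had 113, 229 and 169 normalized counts (aged wild type, replicates 1 to 3), against 261, 251 and 139 (young wild type). Among the broad members, Cfap97 had the next smallest p of those below 0, with 504, 387 and 552 in aged wild type, against 628, 742 and 621 in young wild type, a log2 difference of -0.47 that missed the threshold (limma adjusted p = 0.102).

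In the parts that link and regulate the arms, 1 of 3 tested Drc genes, 1 of 6 radial spoke genes and 1 of 2 tektins rose. Drc3, a subunit of the nexin-dynein regulatory complex, had 45.6, 58.97 and 46.6 normalized counts in aged wild type, against 2.80, 0 and 8.74 in young wild type libraries (log2 difference 3.94 ± 0.99, limma adjusted p = 0.0124). Rsph1, a radial spoke head protein whose human gene is mutated in primary ciliary dyskinesia, had 167, 147 and 159 in aged wild type, against 13.99, 31.7 and 85.6 in young wild type (log2 difference 2.18 ± 0.58, limma adjusted p = 0.0202). Tekt1, a filament protein inside the doublets, had 70.0, 110.4 and 101 in aged wild type, against 4.66, 3.28 and 47.2 in young wild type (log2 difference 3.15 ± 0.76, limma adjusted p = 0.0106). In all of these the groups did not overlap, and young wild type replicate 3 was the highest young library. Drc7, the best expressed gene of the complex, had 948, 631 and 805 in aged wild type, against 103, 233 and 424 in young wild type, again with no overlap but without passing the threshold. No inner arm heavy chain passed in limma, with 6 of 7 tested above 0 and a median log2 difference of 1.83, and none of the 3 intermediate or light chains, with a median of 1.30. The 3 tested assembly factors, which act before the arms reach the cilium, had a median of -0.50 and none passed. Of the 6 broad members, all tested, none passed in either genotype in limma, with median log2 changes with age of 0.14 in Trem1-/- and -0.13 in wild type.

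Most of these calls did not hold with every library left out in turn. Of the 10 called members, Cfap43 and Dnah8 were called in each of the 6 fits with a library left out. Without aged wild type replicate 3 the members called were 3, and Cfap44, Cfap65, Dnah9, Dnah11, Drc3, Rsph1 and Tekt1 had adjusted p of 0.0548 to 0.121. Without young wild type replicate 2 they were 5, with adjusted p of 0.0648 to 0.128 for Cfap44, Cfap74, Dnah9, Drc3, Rsph1 and Tekt1. Without aged wild type replicate 1 they were also 5, with 0.0575 to 0.0851 for Cfap44, Cfap65, Dnah9, Dnah11 and Rsph1. Without young wild type replicate 1 they were 6, with 0.0564 to 0.139 for Cfap65, Dnah9, Dnah11, Rsph1 and Tekt1. Leaving out aged wild type replicate 2 lost Cfap65 and Dnah11 (0.0666 and 0.0779), and leaving out young wild type replicate 3 lost Cfap44 and Dnah11 (0.0545 and 0.101). No log2 difference of a called member moved by over 1.5 times when an aged library was left out, and all such moves came from the young ones. The lowest values were 1.73 for Cfap65 and 1.57 for Rsph1 without young wild type replicate 1, and 2.97 for Dnah8, 1.69 for Dnah9, 3.07 for Drc3 and 2.50 for Tekt1 without young wild type replicate 2. Dnah11 was 3.79 without young wild type replicate 1 or 3 and 5.58 without replicate 2. Without young wild type replicate 3, Dnah9 was 3.24, Drc3 4.71, Rsph1 2.84 and Tekt1 4.24, and without replicate 1 Cfap44 was 4.71 and Dnah8 4.51. The median log2 difference of the tested members was 1.06 to 1.42 in these 6 fits.

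In the libraries labelled Trem1-/-, which share no library with the wild type comparison, 5 of 49 tested members rose and 0 fell with age, against 1.71% of all genes tested. Unadjusted limma p was under 0.05 for 22 members, all of them higher in the aged group. Of all 16086 genes tested it was under 0.05 for 2440, of which 1301 were higher. The median log2 difference of the tested members was 1.39, that of all genes tested was 0.00057, and over all 67 members with no filter it was 1.17. Each aged library exceeded each young one for 21 members, against 11.3% of all genes tested. Cfap65 had 94.3, 88.4 and 147 normalized counts in aged Trem1-/-, against 21.3, 3.87 and 9.48 in young Trem1-/- libraries, a log2 difference of 3.37 ± 0.68 (limma adjusted p = 0.0104). Dnah9 had 99.9, 123 and 117 in aged Trem1-/-, against 46.0, 13.6 and 9.48 in young Trem1-/- libraries, a log2 difference of 2.56 ± 0.65 (limma adjusted p = 0.0444). These 2 genes rose with age in both genotypes, which is 2 of the 9 risen members in wild type and 2 of the 5 in Trem1-/-. Both comparisons came from 1 fit of all 12 libraries and share its estimate of spread, so their p-values are not independent.

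The other 3 risen members in aged Trem1-/- were Rsph4a, Cfap69 and Cfap74. Rsph4a, another radial spoke head protein, had 132, 170.5 and 164 normalized counts in aged Trem1-/-, against 75.7, 21.3 and 2.11 in young Trem1-/- libraries (log2 difference 3.15 ± 0.77, limma adjusted p = 0.0444). Cfap69, needed for mouse sperm flagella and present in olfactory cilia, had 73.8, 92.1 and 66.2 in aged Trem1-/-, against 36.6, 10.7 and 1.05 in young Trem1-/- libraries (log2 difference 3.01 ± 0.77, limma adjusted p = 0.0459). Young Trem1-/- replicate 3 was at or within the floor for both, and replicate 1 was the highest young library. Drc7 had 849.6, 916 and 835 in aged Trem1-/-, against 302, 67.8 and 37.9 in young Trem1-/- libraries, with no overlap and a log2 difference of 3.22 ± 0.74 (limma adjusted p = 0.0797). edgeR and DESeq2 called it, as did limma without young Trem1-/- replicate 1. The lowest p among members below 0 belonged to Dnah12, an inner arm chain, with 5.60, 1.24 and 7.52 in aged Trem1-/-, against 22.1, 36.8 and 11.6 in young Trem1-/- (log2 difference -2.15 ± 1.22, limma adjusted p = 0.42).

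These calls were near the threshold. With 1 library left out the count was 7 without young Trem1-/- replicate 1, 0 without young replicate 2, 1 without young replicate 3, 2 without aged replicate 1, and 1 each without aged replicate 2 and aged replicate 3. Cfap65 lost its call only without young Trem1-/- replicate 2, with an adjusted p of 0.0617. The adjusted p of Cfap69, Dnah9 and Rsph4a was between 0.0833 and 0.236 in the 5 fits that lost them. Without young Trem1-/- replicate 3 the log2 difference was 1.91 for Rsph4a and 1.89 for Cfap69. Without young Trem1-/- replicate 1 it was 4.22 for Rsph4a, 3.99 for Cfap69 and 3.21 for Dnah9. The median of the tested members was 1.15 to 1.60 over the 6 fits.

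**Figure D2:**
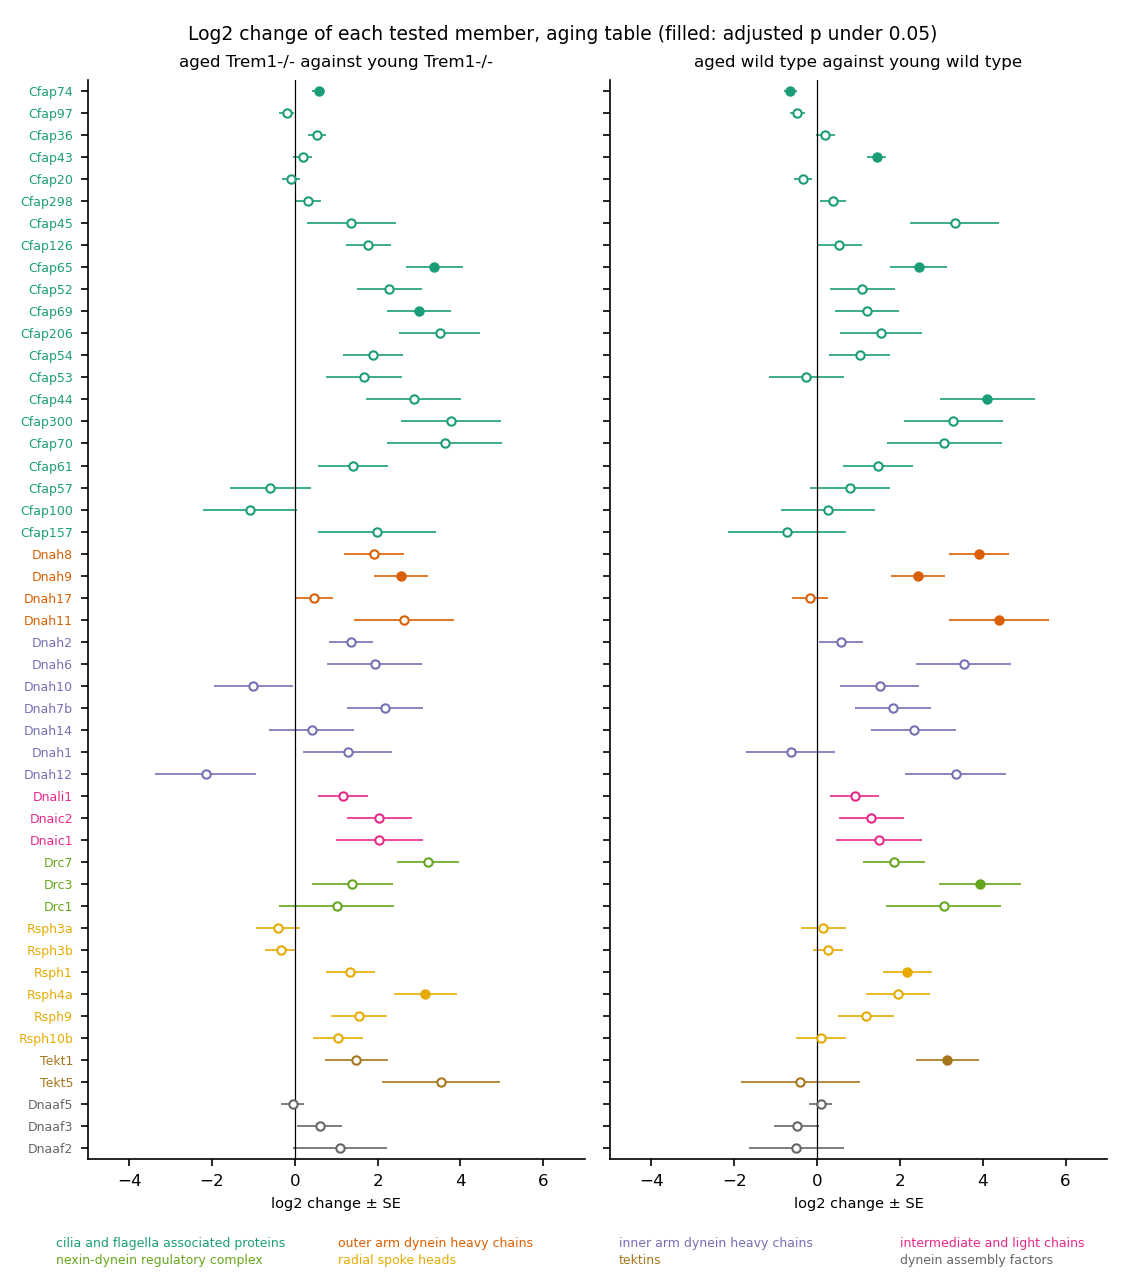
Log2 change with age of each of the 49 tested members (points, bars are ± SE from limma; filled points have an adjusted p under 0.05) in microglia labelled Trem1-/- on the left and in wild type on the right, with rows grouped and coloured by role. Most points lie right of 0 in both, with 40 of 49 in Trem1-/- and 39 of 49 in wild type, and Cfap74 lies right of 0 in Trem1-/- and left of it in wild type.

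The change with age differed between the genotypes for 2 members, Cfap74 and Cfap43, by the interaction term of the fit, against 2.54% of all genes tested. Cfap74 had 1449, 2116 and 2029 normalized counts in aged Trem1-/-, against 1128, 1352 and 1234 in young Trem1-/- libraries, a log2 difference of 0.57 ± 0.15 (limma adjusted p = 0.047), opposite in sign to its fall in wild type. Its interaction was 1.22 ± 0.21 on the log2 scale (limma adjusted p = 0.00215), and it was past the threshold in each of the 12 fits with a library left out. The rise in Trem1-/- alone lost its call in 5 of 6 such fits, all but that without aged replicate 1, with adjusted p of 0.0883 to 0.214. Cfap43 had 547, 480.4 and 363 in aged Trem1-/-, against 385, 366 and 454 in young Trem1-/- libraries, with overlapping groups. Its interaction was -1.25 ± 0.32 (limma adjusted p = 0.0332). It lost this call without young wild type replicate 3, any of the 3 young Trem1-/- libraries, aged wild type replicates 1 or 3, and aged Trem1-/- replicates 2 or 3, with adjusted p of 0.0516 to 0.132, and also with libraries scaled to their reads on genes (0.0649). The smallest interaction p after these belonged to Dnah12, with -5.49 ± 1.72 (limma adjusted p = 0.0946), which did not pass.

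Between young libraries, Trem1-/- against wild type, 2 of 49 tested members passed, 1 in each direction, against 2.58% of all genes tested. The median log2 difference of the members was -0.16, with 19 of 49 above 0. Each Trem1-/- library was above each wild type one for 5 members, against 11.3% of all genes tested. Cfap74 fell, with 1128, 1352 and 1234 normalized counts in young Trem1-/-, against 1858, 2292 and 1681 in young wild type libraries (log2 difference -0.64 ± 0.15, limma adjusted p = 0.0162). Dnah8 rose, with 84.3, 94.9 and 21.1 in young Trem1-/-, against 16.8, 1.09 and 11.4 in young wild type libraries (log2 difference 2.87 ± 0.72, limma adjusted p = 0.0367). For both genes the groups did not overlap. Cfap43 had 385, 366 and 454 in young Trem1-/-, against 246, 261 and 187 in young wild type, without overlap and short of the threshold (log2 difference 0.80 ± 0.22, limma adjusted p = 0.0556). No member was called without young wild type replicate 2, where Cfap74 had an adjusted p of 0.149, and Dnah8 had 0.154 with a log2 difference of 1.93. The log2 difference of Dnah8 was 3.47 without young wild type replicate 1 and 3.55 without young Trem1-/- replicate 3. Dnah8 was also lost without young wild type replicate 3 (0.0629) or Trem1-/- replicate 2 (0.179), and Cfap74 without Trem1-/- replicate 3 (0.0709). Without Trem1-/- replicate 1 both were lost (0.131 for Dnah8 and 0.0776 for Cfap74) and Drc7 passed instead. The members' median was -0.31 to -0.04 with 1 library left out.

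Between aged libraries, Trem1-/- against wild type, 0 of 49 members passed in limma and 0.0% of all genes tested did. Unadjusted limma p was under 0.05 for 3 members, against 1545 of all 16086 genes tested. edgeR and DESeq2 also called 0 members, and DESeq2 called 30 of all genes. Each Trem1-/- library was above each wild type one for 4 members, against 5.91% of all genes tested, and the median log2 difference of the members was 0.14. It was -0.05 without aged wild type replicate 2 and -0.04 without aged Trem1-/- replicate 3. Cfap74 had 1449, 2116 and 2029 normalized counts in aged Trem1-/-, against 1113, 1368 and 1228 in aged wild type libraries, without overlap (log2 difference 0.58 ± 0.15, limma adjusted p = 0.361). Cfap206, linked to radial spokes and needed for mouse sperm motility, had 84.0, 128 and 82.7 in aged Trem1-/-, against 26.7, 10.3 and 38.6 in aged wild type (log2 difference 2.07 ± 0.98, limma adjusted p = 0.513). Cfap57, an inner arm adaptor, had 15.9, 1.24 and 3.01 in aged Trem1-/-, against 24.4, 44.6 and 26.5 in aged wild type (log2 difference -2.57 ± 0.97, limma adjusted p = 0.416). The comparisons between genotypes reuse the libraries of the comparisons between ages, so their values are not independent of those above.

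**Figure D3:**
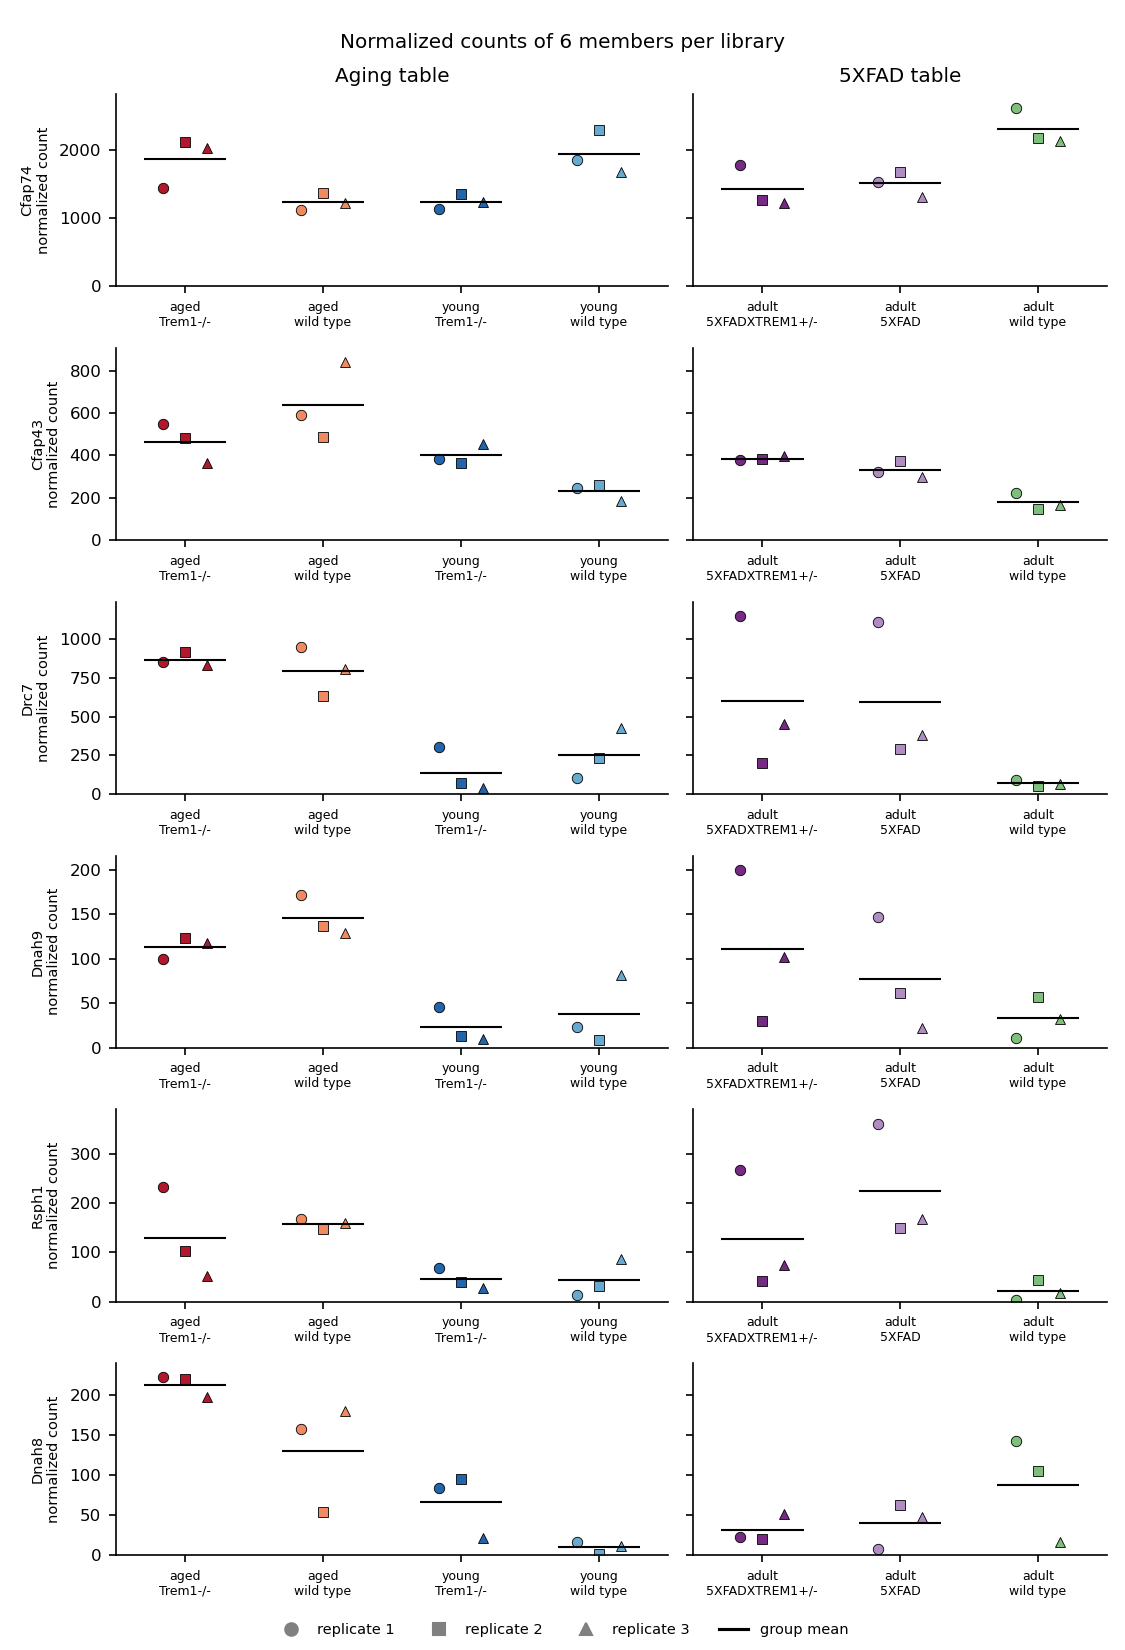
Normalized counts of Cfap74, Cfap43, Drc7, Dnah9, Rsph1 and Dnah8 in every library (points, shaped by replicate) with the mean of each group of 3 (bar); linear axes from 0, aging table left and 5XFAD table right. Cfap74 is high in aged Trem1-/-, young wild type and adult wild type, Drc7 and Dnah9 are high in all 6 aged libraries, and Drc7 is highest in replicate 1 of 5XFADXTREM1+/- and of 5XFAD.

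The promoters of these genes were examined for motifs of ciliary transcription. RFX factors bind the X-box, a palindromic motif found before many ciliary genes, whose core arm reads GTTGCC, and the forkhead motif GTAAACA is bound by factors such as FOXJ1, the main switch for motile cilia. RefSeq windows on GRCm38.p6 of 250 bases before to 50 after the start were available for 55 of the 67 members. On either strand, the X-box was in 10 of 55 windows (18.2%), against 426 of 27025 windows of all genes (1.58%). GTTGCC, which lies inside most X-boxes, was in 21 of 55 (38.2%) against 12.6% of all windows, and GTAAACA in 4 of 55 (7.27%) against 3.58%. A match is a description of the letters, not a site or a cause. The X-boxes of the tested members outside the broad set follow, each read on the strand on which it matches. The search pattern fixed most letters of both arms, so their likeness is not a result.
Cfap44: GTTGCCATAGCAAC
Cfap45: GTTACCATAGCAAC
Dnaic1: GTTACCCAGCAAC
Dnaic2: GTTGCCTAGCAAC
Rsph3b: GTTGCCGAGCAAC
Those of Cfap44, Cfap45, Dnaic1 and Dnaic2 began 27, 19, 19 and 33 bases before the start. The 7 tested members with an X-box had a median log2 difference of 1.30 in aged against young wild type with 1 called, and the 34 with a window and no X-box had 1.32 with 7 called. In aged against young Trem1-/- the medians were 1.37 for both groups of members. Of the members tested in the 5XFAD table, the 7 with an X-box had a median of 1.71 in 5XFADXTREM1+/- against wild type, all 7 above 0, and the 37 with a window and no X-box 0.74, with 28 above 0. In 5XFAD against wild type the medians were 1.48, with 7 of 7 above 0, and 0.07, with 20 of 37 above 0. No member with an X-box passed in these 3 comparisons.

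Windows were taken for Dnah11, Cfap44, Drc3, Dnah8 and Tekt1, which rose in aged wild type. Those of Dnah11, Drc3 and Dnah8 held no X-box, GTTGCC or GTAAACA and are not shown. The RefSeq start of Dnah8 lies 2582 bases from its start in GENCODE M21, inside the gene as placed there. The bases before that GENCODE start were not searched for Dnah8. The whole windows of Cfap44 and Tekt1, which carry the arm GTTGCC, are given 5′ to 3′ on the strand of the gene. The X-box and each GTTGCC (or its reverse complement GGCAAC) are in capitals. The window of Cfap44 is chr16:44394549-44394848 on the plus strand and holds 1 X-box that contains the second of its 2 arms. That of Tekt1 is chr11:72361833-72362132 on the minus strand and holds an arm on each strand but no X-box. Its RefSeq start lies 560 bases from the start in GENCODE M21.
Cfap44: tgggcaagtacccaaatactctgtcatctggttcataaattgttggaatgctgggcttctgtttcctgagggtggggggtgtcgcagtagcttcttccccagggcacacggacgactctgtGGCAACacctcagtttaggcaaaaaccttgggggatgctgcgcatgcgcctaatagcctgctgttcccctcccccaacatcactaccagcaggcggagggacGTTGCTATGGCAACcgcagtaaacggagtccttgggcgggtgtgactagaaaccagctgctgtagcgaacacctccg
Tekt1: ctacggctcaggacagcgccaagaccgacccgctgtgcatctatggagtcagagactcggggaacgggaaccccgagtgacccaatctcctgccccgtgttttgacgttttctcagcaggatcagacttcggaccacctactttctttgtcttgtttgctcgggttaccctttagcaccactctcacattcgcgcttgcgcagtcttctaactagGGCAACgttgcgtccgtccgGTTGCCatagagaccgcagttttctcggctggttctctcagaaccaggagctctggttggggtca

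In 5XFAD against wild type adults, 1 of 52 tested members passed, against 1.98% of all genes tested. The median log2 difference of the tested members was 0.70, while that of all genes tested was 0.0011, and over all 67 members with no filter it was 0.50. Each 5XFAD library was above each wild type one for 10 members, against 9.32% of all genes tested. Rsph1 had 361, 148 and 167 normalized counts in 5XFAD, against 3.30, 43.4 and 18.1 in wild type libraries, without overlap (log2 difference 3.76 ± 0.82, limma adjusted p = 0.0313). Its call was lost without 5XFAD replicate 1 (0.105), 2 (0.0703) or 3 (0.0644), and without wild type replicate 1 (0.0589) or 3 (0.085). The log2 difference was 2.84 without wild type replicate 1 and 4.52 without replicate 2. Drc7 had 1112, 288 and 379 in 5XFAD, against 90.2, 53.9 and 64.1 in wild type libraries, also without overlap but short of the threshold (log2 difference 2.85 ± 0.68, limma adjusted p = 0.0821), while edgeR and DESeq2 called it. Dnah9 had 147, 61.1 and 22.1 in 5XFAD, against 11.003, 57.4 and 32.4 in wild type, with overlap.

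Cfap74 and Cfap43 had even values over the 5XFAD libraries. Cfap74 had 1536, 1681 and 1312 normalized counts in 5XFAD, against 2608, 2170.1 and 2137 in wild type libraries, without overlap (log2 difference -0.61 ± 0.16, limma adjusted p = 0.0568). Cfap43 had 320.1, 374 and 297 in 5XFAD, against 223, 149 and 164 in wild type libraries, without overlap (log2 difference 0.90 ± 0.26, limma adjusted p = 0.086). Neither passed here, while both passed in 5XFADXTREM1+/- against the same wild type libraries. There Cfap74 had 1779, 1266 and 1223 in 5XFADXTREM1+/- (log2 difference -0.71 ± 0.16, limma adjusted p = 0.0208), and Cfap43 had 376, 381 and 398 (log2 difference 1.12 ± 0.26, limma adjusted p = 0.0237). These were the only 2 of 52 tested members past the threshold in that comparison, against 2.78% of all genes tested. The members' median log2 difference was 1.11, that over all 67 with no filter was 0.74, and the groups did not overlap, upward, for 11 members, against 12.9% of all genes tested. Drc7 had 1149, 198 and 454 in 5XFADXTREM1+/-, and its log2 difference from wild type was 2.77 ± 0.68 (limma adjusted p = 0.0736), which edgeR and DESeq2 also called.

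With 1 library left out, the log2 differences from wild type were -0.88 to -0.61 for Cfap74 and 1.004 to 1.30 for Cfap43, while the calls held in 2 and 1 of 6 fits. Cfap74 had an adjusted p of 0.105 without 5XFADXTREM1+/- replicate 2, 0.147 without replicate 3, 0.104 without wild type replicate 1 and 0.0663 without wild type replicate 2. Cfap43 had 0.0614, 0.0922 and 0.135 without 5XFADXTREM1+/- replicates 1, 2 and 3, and 0.1002 and 0.0588 without wild type replicates 2 and 3. Between 5XFADXTREM1+/- and 5XFAD, 0 of 52 members passed in limma, against 0.0% of all genes tested, and edgeR and DESeq2 called 0 members. Unadjusted limma p was under 0.05 for 0 members, against 883 of all 17025 genes tested. Every 5XFADXTREM1+/- library was above every 5XFAD one for 1 member, against 5.24% of all genes tested, and the median log2 difference of the members was 0.16. That median was -0.23 without 5XFAD replicate 3 and -0.22 without 5XFADXTREM1+/- replicate 1. The smallest unadjusted p belonged to Dnah12, with 14.6, 40.4 and 8.61 normalized counts in 5XFADXTREM1+/-, against 2.74, 8.72 and 0 in 5XFAD (log2 difference 2.47 ± 1.27, limma adjusted p = 0.931).

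**Figure D4:**
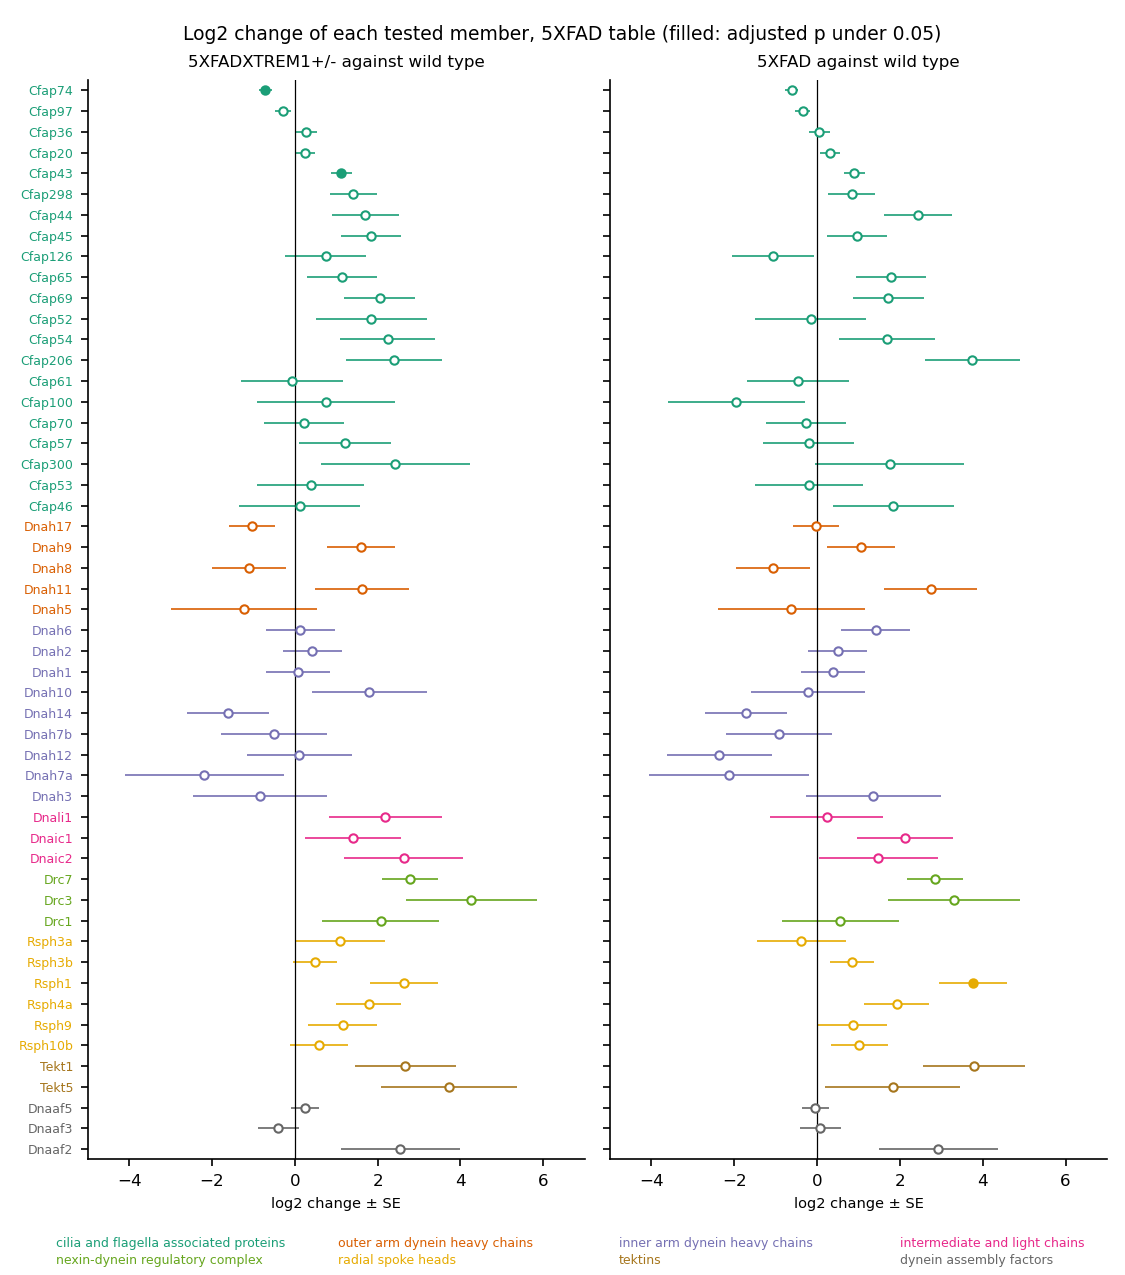
Log2 change of each of the 52 tested members (points, bars are ± SE from limma; filled points have an adjusted p under 0.05) in 5XFADXTREM1+/- on the left and in 5XFAD on the right, each against the same 3 adult wild type libraries, with rows grouped and coloured by role. Points right of 0 number 41 on the left and 33 on the right, with wide bars, and the narrow bars of Cfap74 and Cfap43 lie left and right of 0 in both.

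In the 5XFAD table, the highest values lay mostly in 1 library of each mutant group. Among the 46 tested members outside the broad set, 5XFADXTREM1+/- replicate 1 was the highest library of its group for 37 and 5XFAD replicate 1 for 29, while wild type replicate 1 was highest of its group for 10. Replicate 1 of 5XFADXTREM1+/- was the highest of all 9 libraries for 21 members. Without the libraries numbered 1, a choice made after seeing the data, the members' median log2 difference was 0.28 for 5XFADXTREM1+/- and 0.17 for 5XFAD against wild type. Leaving out single libraries gave at the lowest 0.50 for 5XFADXTREM1+/-, without its replicate 1, and 0.28 for 5XFAD, without wild type replicate 1. Drc7 then passed in both comparisons, Cfap74 passed in 5XFADXTREM1+/-, and Rsph1 did not pass in 5XFAD (log2 difference 2.44, limma adjusted p = 0.14). In the aging table, of 43 tested members outside the broad set, the most in a group were 20 highest in aged Trem1-/- replicate 3, 16 in aged wild type replicate 1, 21 in young Trem1-/- replicate 1 and 23 in young wild type replicate 3. Over all 12 libraries, of these 43 tested members outside the broad set, the highest library was an aged one for 40, spread as 5, 6 and 14 over aged Trem1-/- and 8, 3 and 4 over aged wild type replicates. The library with 14, aged Trem1-/- replicate 3, had the fewest gene reads of the aging libraries (8600878) and the most genes above 0 (24877). Whether this bears on its high values was not tested.

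Markers of ciliated tissue next to the ventricles were summed beside the members. Summed over the 59 members outside the broad set and without Cfap74 and Cfap43, the RPM were 271, 276 and 336 in aged Trem1-/- and 277, 225 and 252 in aged wild type, against 124, 87.2 and 81.8 in young Trem1-/- and 75.5, 111 and 154 in young wild type libraries. All 6 aged libraries were above all 6 young ones. The 14 choroid plexus markers summed to 4332 to 5388 RPM in aged Trem1-/- and 3579 to 6003 in aged wild type, against 319 to 2032 in young Trem1-/- and 795 to 1979 in young wild type. Among the young libraries, replicate 1 of Trem1-/- and replicate 3 of wild type were highest for both sums. In the 5XFAD table the member sum was 414, 111 and 172 in 5XFADXTREM1+/- and 357, 161 and 173 in 5XFAD, against 90.4, 122 and 121 in wild type. The choroid plexus sum was 13352, 2441 and 4057 in 5XFADXTREM1+/- and 10559.7, 1963 and 3281 in 5XFAD, against 881, 323 and 493 in wild type. The sums did not follow each other in every library of this table. Wild type replicate 1 had the lowest member sum and the highest choroid plexus sum of its group. The 5XFADXTREM1+/- library with 111 RPM of members was below the highest wild type member sum, but with 2441 above every wild type choroid plexus sum.

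All 14 choroid plexus markers were tested in limma, and the share of all genes tested that passed is given in brackets. With age, 3 rose in Trem1-/- (1.71%) and 4 in wild type (8.67%). Against adult wild type, 3 rose in 5XFADXTREM1+/- (2.78%) and 2 in 5XFAD (1.98%). Between genotypes 0 passed in young (2.58%) or aged libraries (0.0%), and 0 between 5XFADXTREM1+/- and 5XFAD (0.0%). Their medians were log2 differences of 2.45, 1.97, 3.05 and 2.73 in the 4 comparisons with calls. Ttr, the transthyretin that the choroid plexus secretes, had 26898 to 37118 normalized counts in aged Trem1-/- and 24078 to 40050 in aged wild type, against 2039 to 13177 in young Trem1-/- and 5383 to 13193 in young wild type. Lmx1a was at 0 in young Trem1-/- replicate 3, young wild type replicate 2 and adult wild type replicate 2, where Folr1 and Aqp1 were also at 0. The 6 ependymal markers outside the axoneme summed to 12.5 to 24.9 RPM in aged Trem1-/- and 11.8 to 21.8 in aged wild type, against 1.205 to 5.18 in young Trem1-/- and 0.917 to 5.15 in young wild type. They summed to 8.21 to 41.7 in 5XFADXTREM1+/- and 2.37 to 34.7 in 5XFAD, against 1.82 to 4.33 in adult wild type. Most of each group mean of these sums was 1500015O10Rik, with means of 211 normalized counts in aged Trem1-/- and 219 in aged wild type, against 38.2 in young Trem1-/- and 32.04 in young wild type. Rarres2 was lower when aged in wild type, with means of 0.741 normalized counts when aged and 5.51 when young. In Trem1-/- it was higher, with means of 11.7 when aged and 5.13 when young, and 33.1 in aged Trem1-/- replicate 3. Its means were 0.913 in 5XFADXTREM1+/- and 2.42 in 5XFAD, against 14.1 in adult wild type. The means of 0.741 and 0.913 lie under the floor. Only 1500015O10Rik of the 6 was high enough to test and none was called; Sntn was at 0 in all 21 libraries, Mia in all but 1 and Tmem212 in all but 3. The part of either cell type in the members' changes was not tested.

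**Figure D5:**
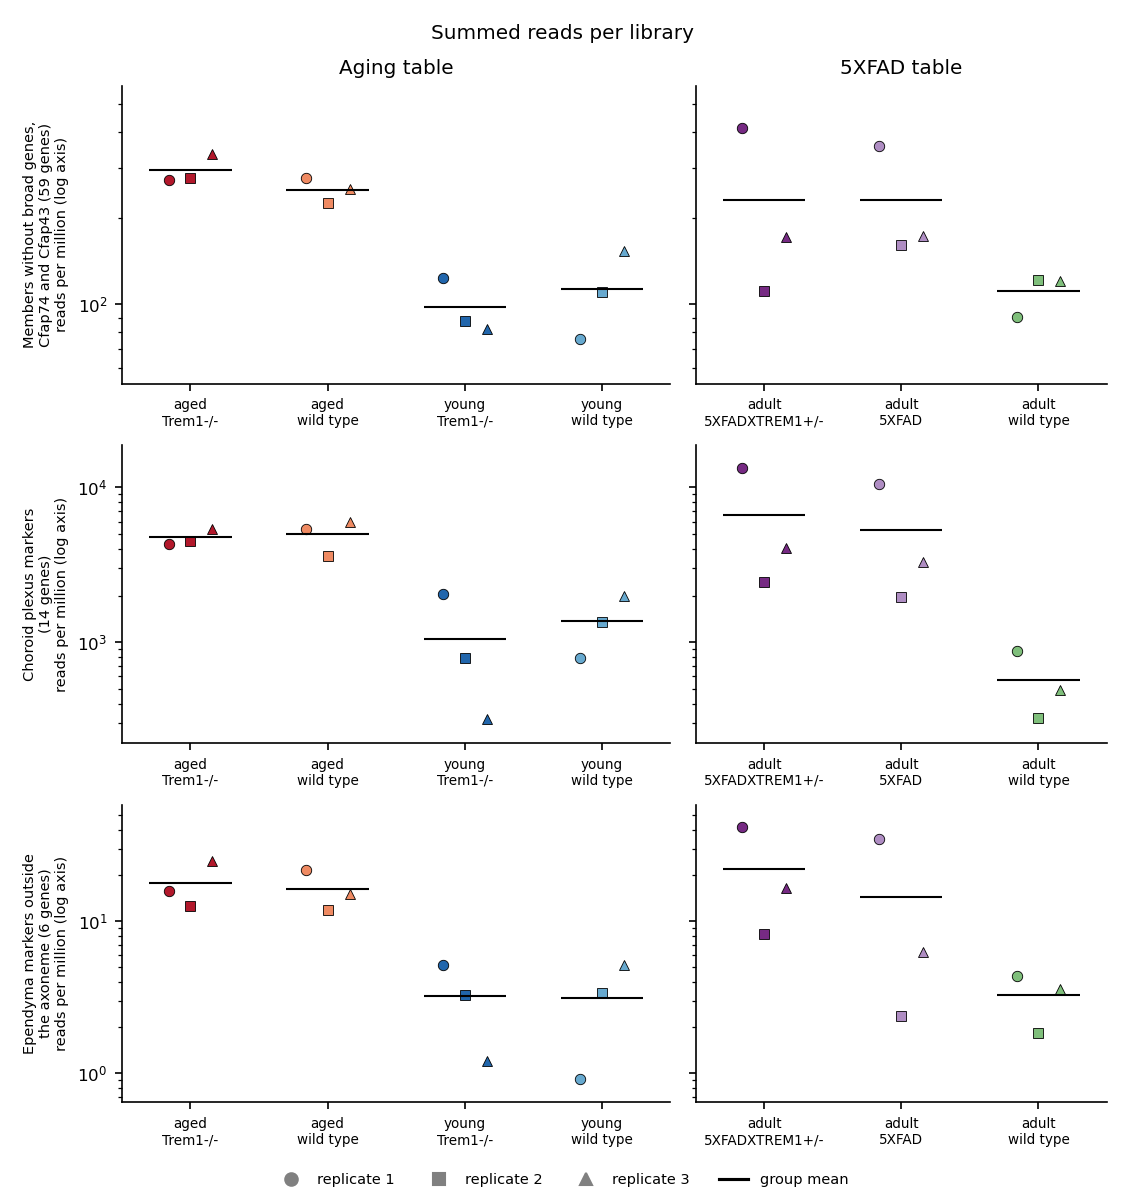
Summed RPM of 59 members (without the broad set, Cfap74 and Cfap43), of 14 choroid plexus markers and of 6 ependymal markers outside the axoneme in every library (points, shaped by replicate), with the group mean as a bar, on log axes. All 3 sums are higher in the 6 aged than in the 6 young libraries, and replicate 1 of 5XFADXTREM1+/- and of 5XFAD is the highest of its group in each. Most of each group mean of the ependymal sum is the single gene 1500015O10Rik.

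Markers of blood cells and other brain cells also differed between groups, in part in the same direction as the members. Of all genes tested, 8.67% passed in aged against young wild type and 1.71% in aged against young Trem1-/-. In young Trem1-/- against young wild type 2.58% passed. Against adult wild type, 2.78% passed in 5XFADXTREM1+/- and 1.98% in 5XFAD. The 9 monocyte markers summed to 1346 to 1618 RPM in aged Trem1-/-, 1349 to 2398 in aged wild type and 1069 to 2666 in young Trem1-/-, against 182 to 381 in young wild type, the group with the lowest Dnah8 and Cfap43. Cfap74 was high in young wild type and in aged Trem1-/-. All 9 monocyte markers rose in aged against young wild type and 6 in young Trem1-/- against young wild type. The 13 neutrophil markers summed to 5317 to 12022 in aged Trem1-/- and 6209 to 10714 in aged wild type, against 2752 to 5694 in young Trem1-/- and 1302 to 1977 in young wild type. They rose for 12 of 13 in aged against young wild type, 4 in young Trem1-/- against young wild type and 1 in aged against young Trem1-/-. All 13 were above 0 with age in both genotypes, with median log2 differences of 1.16 in Trem1-/- and 3.08 in wild type. Of the 10 microglial markers, 8 fell in aged against young wild type and 2 in aged against young Trem1-/-. In the 5XFAD table, 2 of 9 astrocyte markers rose in 5XFAD and 1 in 5XFADXTREM1+/-, with sums of 324 to 388 RPM in 5XFADXTREM1+/- and 311 to 471 in 5XFAD, against 228 to 295 in wild type. The 10 neuronal markers, of which 8 were tested and 0 called in limma, summed to 20.0 to 34.5 RPM in 5XFADXTREM1+/- and 31.1 to 64.3 in 5XFAD, against 10.3 to 17.9 in wild type. The 8 endothelial markers, with 7 tested and 0 called, summed to 162 to 250.3 RPM in 5XFADXTREM1+/- and 161 to 229 in 5XFAD, against 128 to 149 in wild type. Of the microglial markers, 1 rose in 5XFADXTREM1+/-, and 1 rose and 3 fell in 5XFAD, against wild type. Their part in the values of Dnah8, Cfap43 and Cfap74 was not tested.

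Ciliary genes outside the 8 symbol families were counted in the same way, beside 1.71% of all genes called in aged against young Trem1-/- and 8.67% in aged against young wild type. Of 38 tested genes for other axoneme and dynein parts, 2 rose in aged Trem1-/- (Mns1 and Ccdc113) and 1 in aged wild type (Mns1), with median log2 differences of 1.24 and 1.31. Mns1, a filament protein inside the doublets, had 131, 212 and 150.4 normalized counts in aged Trem1-/- and 123, 78.2 and 96.4 in aged wild type, against 53.6, 31.0 and 11.6 in young Trem1-/- and 22.4, 32.8 and 28.8 in young wild type. The most abundant of these genes, Gas8, Dnal4 and Kif9, did not pass in either. None of the 37 tested in the other table passed in limma, where the median log2 difference from wild type was 0.83 in 5XFADXTREM1+/- and 0.99 in 5XFAD.

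Of the regulators of multiciliation, 2 of 9 tested rose in aged wild type. Foxj1 had 85.9, 143 and 134 normalized counts in aged Trem1-/-, against 43.4, 16.5 and 22.1 in young Trem1-/- libraries (log2 difference 2.19 ± 0.59, limma adjusted p = 0.0591). In wild type it had 139, 72.0 and 141 when aged, against 9.33, 23.0 and 61.1 when young (log2 difference 2.18 ± 0.59, limma adjusted p = 0.0208). The interaction of Foxj1 was 0.0011 ± 0.84 on the log2 scale. In the 5XFAD table it had 173, 18.1 and 87.1 in 5XFADXTREM1+/- and 229.8, 23.3 and 37.6 in 5XFAD, against 9.90, 0 and 20.4 in wild type, and did not pass.

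Rfx2, which encodes an X-box binding factor, followed another pattern. It had 119.5, 73.4 and 31.6 normalized counts in aged Trem1-/- and 219, 85.0 and 87.5 in aged wild type, against 52.8, 201 and 153.8 in young Trem1-/- and 30.8, 2.19 and 11.4 in young wild type. It rose in aged against young wild type (log2 difference 3.46 ± 0.74, limma adjusted p = 0.00567) and in young Trem1-/- against young wild type (3.46 ± 0.74, limma adjusted p = 0.0128), with an interaction of -4.30 (limma adjusted p = 0.034). The most abundant regulators, E2f4, Rfx3 and E2f5, act in many cell types and did not pass. Of 26 genes for intraflagellar transport, which builds all cilia, 1 passed, Wdr35. Of all genes tested, 8.67% passed in aged against young wild type. Against adult wild type it was 2.78% in 5XFADXTREM1+/- and 1.98% in 5XFAD. Wdr35 had 507, 247 and 409 normalized counts in 5XFADXTREM1+/- and 677, 353 and 451 in 5XFAD, against 142, 118 and 182 in adult wild type (log2 differences 1.35 ± 0.31 and 1.71 ± 0.31, limma adjusted p = 0.0254 and 0.00881). It rose by 0.91 ± 0.28 in aged against young wild type (limma adjusted p = 0.0426).

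Members differed in how closely they followed the mean of the others over the libraries, which share depth and normalization. Over the 12 aging libraries, Pearson's r with the mean of the other tested members outside the broad set was highest for Cfap300 (0.96), Cfap65 (0.94), Dnah9 (0.93) and Drc7 (0.92). It was lowest for Cfap100 (-0.25), Cfap74 (-0.15) and Rsph3a (-0.09). Over the 9 libraries of the 5XFAD table the highest were Dnah9 (0.93), Cfap44 (0.88) and Cfap69 (0.88), and the lowest Dnah8 (-0.64), Dnah17 (-0.49) and Cfap74 (-0.33). The genes outside the list most like the members' mean were Myh14, Nxn, Kl, Pcbp3 and Mdh1 in the aging table (0.97 to 0.98), and Wdr47, Dtna, Msantd4, Ccdc136 and Dynlt3 in the 5XFAD table (0.94 to 0.95). Kl, the gene of klotho, is among the choroid plexus markers. These r values are descriptions, since the genes share libraries and groups.

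The authors' own statistics compare other groups. In the authors' deposited table for aging, which sets young wild type against aged Trem1-/- and so changes age and genotype together, a positive value means higher in wild type. Of 59 members with an adjusted p in the authors' deposited table, 9 were lower in young wild type and 0 higher, against 5.15% of all genes lower. They include Dnah8 (log2 -4.42 ± 0.63) and Cfap44 (-4.87 ± 1.21) in the authors' deposited table. For wild type against 5XFAD, the authors' deposited table had 4 members lower in wild type (Rsph1, Drc7, Cfap43 and Cfap206) and 1 higher (Cfap74, log2 0.61 ± 0.18), of 62 with an adjusted p, against 4.24% of all genes called in the authors' deposited table and 3.26% lower in wild type.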

How the data were processed

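RNA sequencing libraries of mouse microglia were grouped by the genotype and age in the labels, 3 per group. Per the submitters' processing notes, the authors used fastp, HISAT2 2.0.5, featureCounts 1.5.0-p3 and DESeq2 1.20.0 on GRCm38; per the labels, the kits were RNeasy mini plus for total RNA and NEBNext Ultra RNA for libraries. The deposited per-library columns hold a signal, read counts divided by a size factor per library; the value of 1 read was recovered in each column, and at least 99.9956% of nonzero values were whole reads within 0.05 read. The deposited tables also hold the authors' p-values and adjusted p-values, their log2 fold changes with errors, and a test score.

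Genes with a table mean of at least 10 were put on the scale log2(normalized count + 1) and tested in limma 3.58.1 under R 4.3.3 with its trend and robust options, all groups of a table in 1 fit, with Benjamini-Hochberg adjustment over all genes tested. A fold change on this scale understates changes of low genes. An exact permutation test of 3 against 3 libraries cannot give a p below 0.1, so none was used. Alternatives were pseudocounts of 0.5 and 5, other filters, scaling to reads on genes, limma without trend and robust, edgeR 4.0.16 and DESeq2 1.42.0 on the recovered counts, only the groups compared, a replicate block and each library left out. Leaving out the libraries numbered 1 in the 5XFAD table was added after seeing the data. On the recovered reads, edgeR called 1285 genes, 7 of them members, in aged against young wild type, and 206 genes, 1 of them a member, in 5XFAD against wild type. Marker sums are RPM, the recovered reads of a list per 1000000 reads on genes of the library.

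The members, the lists and the tests were chosen with earlier results of these data known. Named genes were the members past the threshold, those with the highest means overall and per role, and those with the smallest p in each direction of a comparison; Cfap99, Dnah5, Cfap73 and the low members listed with them were chosen after their values were seen. Positions and exon lengths are from GENCODE M21, which matched all 67 members and 53825 of 54532 symbols; promoter sequences are from RefSeq (GRCm38.p6).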

Additional observations from a re-analysis of the deposited data

Results flagged for a closer look

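Cfap74 and Cfap43 were marked because their changes with age differed between the genotypes by the interaction term of the limma fit. For Cfap74 the log2 change with age in the libraries labelled Trem1-/- minus that in wild type was 1.22, with its level higher in aged Trem1-/- than in young Trem1-/- and lower in aged than in young wild type. For Cfap43 it was -1.25 (-1.247 before rounding), with a rise in wild type and overlapping groups in Trem1-/-. Groups of 3 libraries are too small for a test of single outlying libraries.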

How the results depend on the processing

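The members past the threshold were 10 of 49 in aged against young wild type, 5 in aged against young Trem1-/-, 2 in young Trem1-/- against young wild type, 0 in aged Trem1-/- against aged wild type, 2 in the interaction, 1 of 52 in 5XFAD against wild type, 2 in 5XFADXTREM1+/- against wild type and 0 in 5XFADXTREM1+/- against 5XFAD. Limma without trend and robust called 3, 0, 0, 0, 0, 0, 0 and 0 in that order. DESeq2 called 9 in aged against young Trem1-/-, 4 in young Trem1-/- against young wild type, 5 in 5XFAD and 4 in 5XFADXTREM1+/- against wild type. edgeR and a pseudocount of 0.5 each called 2 in aged against young Trem1-/-. Scaling to reads on genes called 1 in the interaction and moved the median of all genes there to 0.14. In 5XFAD against wild type, no filter called 5, a table mean of at least 3 called 2, a pseudocount of 5 called 2, and a fit of only the groups compared called 3. With no filter, 5 were called in 5XFADXTREM1+/- against wild type. The share of all genes called under each of these alternatives is not given here. The counts therefore show how the calls moved, not whether members passed more often than other genes. With 1 library left out, the counts ran from 3 to 10, 0 to 7, 0 to 2, 0 to 0, 1 to 2, 0 to 1, 0 to 2 and 0 to 0 in the order above.

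The deviations of same-numbered libraries correlated with a median r of 0.0119 over 18 pairs of aging libraries (-0.1359 to 0.0988). Over 9 pairs of 5XFAD libraries the median r was 0.0116 (-0.0328 to 0.2031). The highest r, 0.2031, was that of 5XFAD replicate 1 with 5XFADXTREM1+/- replicate 1, the libraries with most of the highest member values. Pairs with unlike numbers reached 0.0572 in the 5XFAD table. In the aging table they reached 0.1737, for young wild type replicate 3 with young Trem1-/- replicate 1, above every same-numbered aging pair. Whether equal replicate numbers mark samples handled together was not tested. With the replicate block the counts were 11, 5, 2, 0, 2, 3, 3 and 0 in the order above. The members' summed RPM were 1.21 times those of the young in aged wild type, 1.39 times without the broad members and 1.53 times without Cfap74. They were 1.81 times in aged against young Trem1-/-, and 2.19 times without the broad members. In 5XFAD they were 1.21 times those in wild type, and 1.56 times without Cfap74. In 5XFADXTREM1+/- they were 1.23 times those in wild type and 1.01 times those in 5XFAD, but 0.949 and 0.782 times without 5XFADXTREM1+/- replicate 1. Against 5XFAD the ratio was also below 1 without 5XFAD replicate 2 (0.958) or 3 (0.928) and without the broad members (0.988). No called gene changed direction in the alternatives run. Of the alternatives for called genes, 249 kept the call and 116 lost it, and for named genes without a call 29 passed and 550 did not. The causes were not tested. At 3 reads or fewer per library, the lowest members have no measurable change.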
